A study of Mus musculus with 16 samples.

Results

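The matrix metalloproteases (genes named Mmp), the ADAM, ADAMTS and ADAMTS-like genes and the tissue inhibitors of metalloproteases (Timp) were followed in cultured mouse airway epithelium. The members were the protein-coding genes whose symbol is Mmp, Timp, Adam, Adamts or Adamtsl followed by a number, with or without a letter. Of the 49315 genes in the count table, 83 met this rule, namely 22 Mmp, 4 Timp, 33 Adam, 19 Adamts and 5 Adamtsl genes. The 53 with at least 10 counts in at least 2 libraries are described: 16 Mmp, 3 Timp, 14 Adam, 16 Adamts and 4 Adamtsl genes. Of the 30 others, 10 had no count in any library and 20 had at most 12 counts in any library. These included Mmp8 and Timp4. Of the 53, 51 passed the filter on low counts and were tested, and Adamts3 and Adamts8 did not pass it.

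Murine tracheal epithelial cell cultures (MTECs) are primary cells of the trachea that form ciliated and secretory cells under an air-liquid interface. Cultures came from male and female mice on a C57BL/6J background that were either LMAN1 KO or WT littermates from heterozygous breeding, and were left naive or received HDM, an extract of house dust mite, at 20 µg/ml overnight. LMAN1 is a lectin that carries glycoproteins out of the endoplasmic reticulum and that the study examined as a receptor for HDM. Sex, genotype and treatment were crossed, and each of the resulting 8 groups held 2 cultures, which gave 16 RNA-seq libraries. The labels call the 2 cultures of a group biological replicates without saying whether they came from separate animals, so p-values measure the spread between these cultures.

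MMPs, ADAMs and ADAMTS enzymes are zinc proteases. Soluble MMPs cut collagens, proteoglycans and other proteins of the matrix, whereas the membrane-type MMPs act at the cell surface and can activate other MMPs there. ADAMs sit in the membrane and release the outer parts of growth factors, cytokines and receptors, a process called shedding, while ADAMTS enzymes are secreted and trim proteoglycans or procollagens. TIMPs bind the active site of these enzymes. TIMP2 blocks membrane-type MMPs, and together with MMP14 it can also bring pro-MMP2 to the cell surface for activation.

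Libraries held 21860698 to 43442188 counts. Lman1 was at 101 to 144 CPM (counts per library total, with totals adjusted by TMM factors) in the 8 WT libraries, but 5 of the 8 libraries labelled KO held 52.6 to 64.8% of the WT mean. These were all 4 HDM-treated libraries labelled KO and male naive replicate 2, whereas the other 3 held 10.6 to 11.8%. The part of the gene deleted in the line was not checked, and KO stands for the label below. Leaving out the KO libraries with over 20% of the WT mean would leave none with HDM, so HDM responses of KO cultures could not be given without them. Xist was at 94.2 CPM or more in every female library and at 3.60 CPM or less in every male library, as labelled. All 7 epithelial markers were detected, with a summed level of 6278 to 10640 CPM, and 6 of 7 neutrophil markers never passed 3 counts. Summed levels of 9 fibroblast markers ran from 3.18 to 606 CPM, and both female WT libraries numbered 2 stood apart at 577 and 606 CPM, against 29.3 and 48.9 CPM in those numbered 1.

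Per length (mean CPM per kb of exon over 16 libraries), the most abundant member was Timp2 at 168. It was followed by Adam9, a broadly expressed sheddase, at 113 and Mmp15, a membrane-type MMP, at 103. Mmp14 stood at 75.6, Adamtsl4, which binds fibrillin microfibrils, at 71.5, and Adam10 at 43.5. Most members were rare, and 33 of the 53 described were below 1 CPM per kb. The gelatinases Mmp2 and Mmp9 averaged 2.70 and 0.19 CPM per kb, and the elastase Mmp12 averaged 0.39.

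The summed level of all 83 genes was 2946 to 3568 CPM in the 8 male libraries and 2992 to 3099 CPM in the 4 naive female libraries. After HDM it reached 5537 and 5611 CPM in female WT cultures and 3770 and 3890 CPM in female KO cultures. The Mmp sum went from 768 and 854 CPM to 2165 and 2148 CPM in female WT cultures, and the Timp sum went from 709 and 736 CPM to 1647 and 1904 CPM. The Adam sum lay at 1136 and 1116 CPM without HDM and at 1044 and 1022 CPM with it. Mmp14, Mmp15 and Timp2 together made up 42.1 and 42.4% of the members' sum in naive female WT cultures and 61.6 and 62.7% after HDM. The other 12 libraries held 38.7 to 56.5%, and the highest of these were the female KO cultures with HDM at 54.3 and 56.5%.

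**Figure D1:**
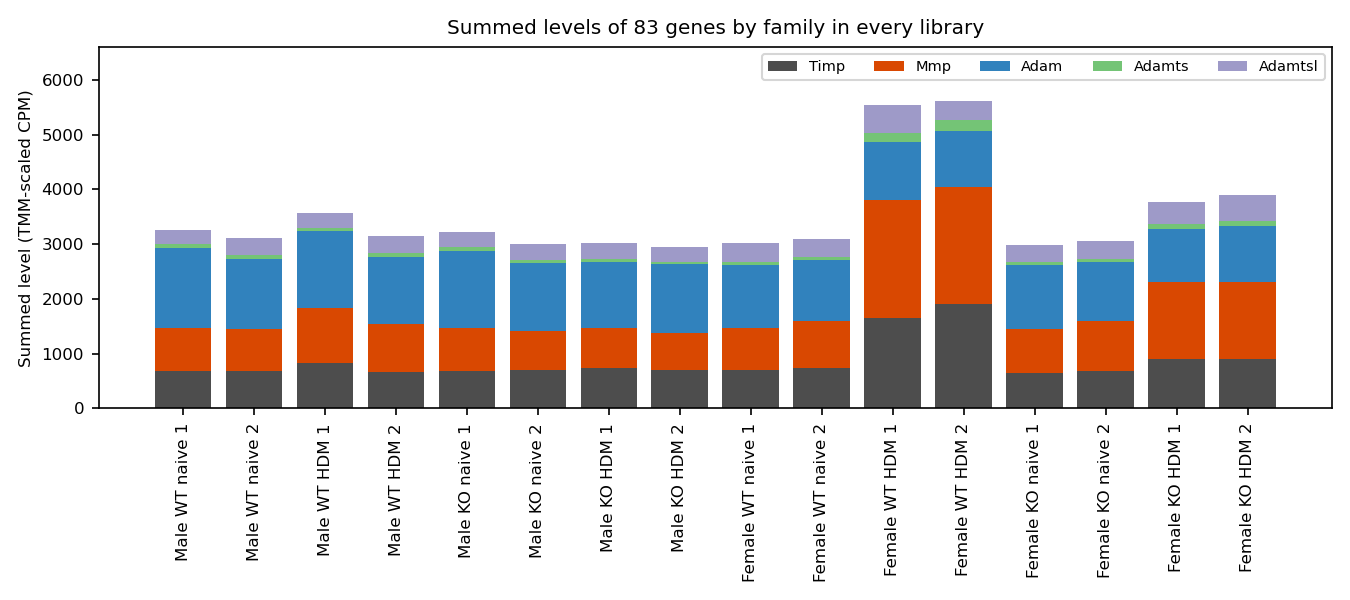
Summed levels (TMM-scaled CPM, vertical axis) of the 83 genes in each of the 16 libraries, stacked by family. The 2 female WT libraries with HDM reach 5537 and 5611 CPM, the 2 female KO libraries with HDM reach 3770 and 3890 CPM, and the other 12 lie between 2946 and 3568 CPM.

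The first comparison asked how HDM changed these genes in female WT cultures. With HDM, 29 of the 51 tested members were called at an adjusted p under 0.05 (edgeR quasi-likelihood test), 23 higher and 6 lower. Over all 15993 tested genes 43.1% were called, 20.6% higher and 22.4% lower. Higher calls thus made up 45.1% of the tested members and lower calls 11.8%. The median log2 fold change was 1.00 over the tested members and -0.02 over all tested genes. Of the 51, 49 had 10 counts in 2 libraries outside female WT HDM, and Adamts14 and Adamts20 did not. Adamts20, which is among the 23 higher calls, was thus tested only through the group where it was high.

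**Figure D2:**
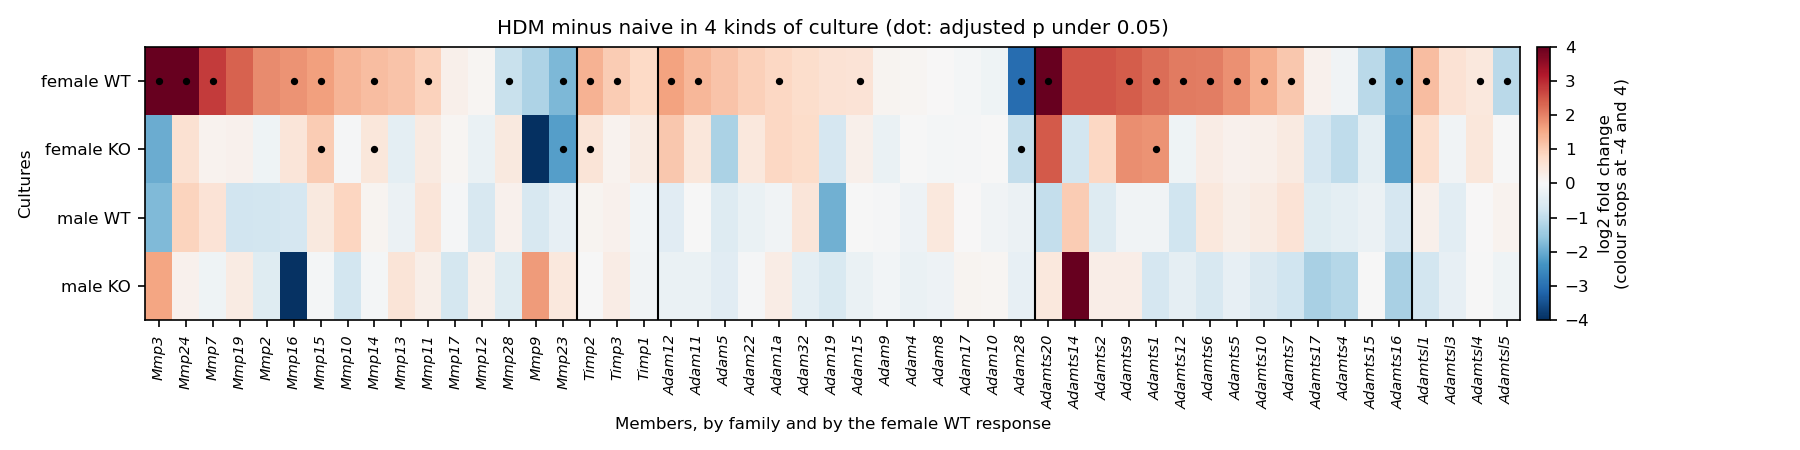
HDM minus naive (log2 fold change, colour) for the 51 tested members in 4 kinds of culture, with dots where the adjusted p was under 0.05. Female WT cultures have 29 dots, female KO cultures 6 and male cultures of either genotype 0.

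Among the membrane-type MMPs, 4 of 5 tested members rose with HDM in female WT cultures. Mmp15 stood at 365 and 377 CPM in naive cultures and at 1231 and 1076 CPM with HDM, a log2 fold change of 1.64 ± 0.12 (SE, n = 2 per group, edgeR adjusted p = 2.02e-06). Mmp14, the main cell-surface collagenase, went from 366 and 420 CPM to 890 and 945 CPM (1.22 ± 0.10, edgeR adjusted p = 4.78e-06). For both genes the HDM libraries of female WT cultures were higher than all 14 others. In the 8 male libraries Mmp15 had a lowest value of 361, a median of 403 and a highest value of 576 CPM, and Mmp14 had 291, 336 and 396 CPM.

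The other 2 called membrane-type genes were rare. Mmp24 had 7 and 6 counts in naive cultures and 70 and 85 counts with HDM, a ratio of 19.0 after scaling for library size (exact 95% interval 10.8 to 36.5, counting error only), and a fitted log2 fold change of 4.19 ± 0.73. Its HDM libraries lay at 2.91 and 4.03 CPM and no other library passed 0.44 CPM. Exons of Mmp24 share 637 bases with BC029722 on the opposite strand, a gene at 16.9 to 34.6 CPM that also rose (0.61 ± 0.15), and whether reads were counted by strand is not given. Mmp16 had 8 and 10 counts without and 15 and 25 counts with HDM, and its call (adjusted p = 0.045) was lost with DESeq2 and without any of 3 of its 4 libraries. Mmp17 was not called.

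Of the 3 tested TIMPs, 2 rose with HDM in female WT cultures. Timp2 was at 541 and 517 CPM in naive female WT cultures and at 1288 and 1495 CPM with HDM, against 491, 514 and 559 CPM as the lowest, median and highest of the 8 male libraries. Its log2 fold change was 1.40 ± 0.09 (edgeR adjusted p = 6.05e-07), the smallest adjusted p of any tested member in this comparison. Timp3, which binds to the matrix and also inhibits ADAM17 and the aggrecanases, went from 164 and 197 CPM to 345 and 377 CPM (1.00 ± 0.21, adjusted p = 0.0025). Exons of Timp3 share 1733 bases with Syn3 on the opposite strand, which had at most 2.45 CPM. Timp1 had 4.11 and 22.3 CPM in naive cultures and 14.1 and 32.7 CPM with HDM. These groups overlapped, and Timp1 was not called (0.81 ± 0.74, adjusted p = 0.40). Timp4 had at most 12 counts in any library.

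Mmp14 and Timp2 both rose, and the ratio of Mmp14 to Timp2 per length was 0.44 and 0.53 in naive female WT cultures, 0.45 and 0.41 with HDM and 0.39 to 0.46 in the 8 male libraries. The ratio of Mmp15 to Mmp14 per length was 1.10 and 0.99 without HDM and 1.53 and 1.26 with it. In female KO cultures it was 1.07 and 1.15 without HDM and 1.66 and 1.60 with it, and in both female genotypes the libraries with HDM were higher. In male WT cultures it was 1.38 and 1.25 without and 1.61 and 1.59 with HDM, again without overlap, whereas in male KO cultures it was 1.41 and 1.28 without and 1.28 and 1.37 with HDM. These ratios are descriptions and were not tested.

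**Figure D3:**
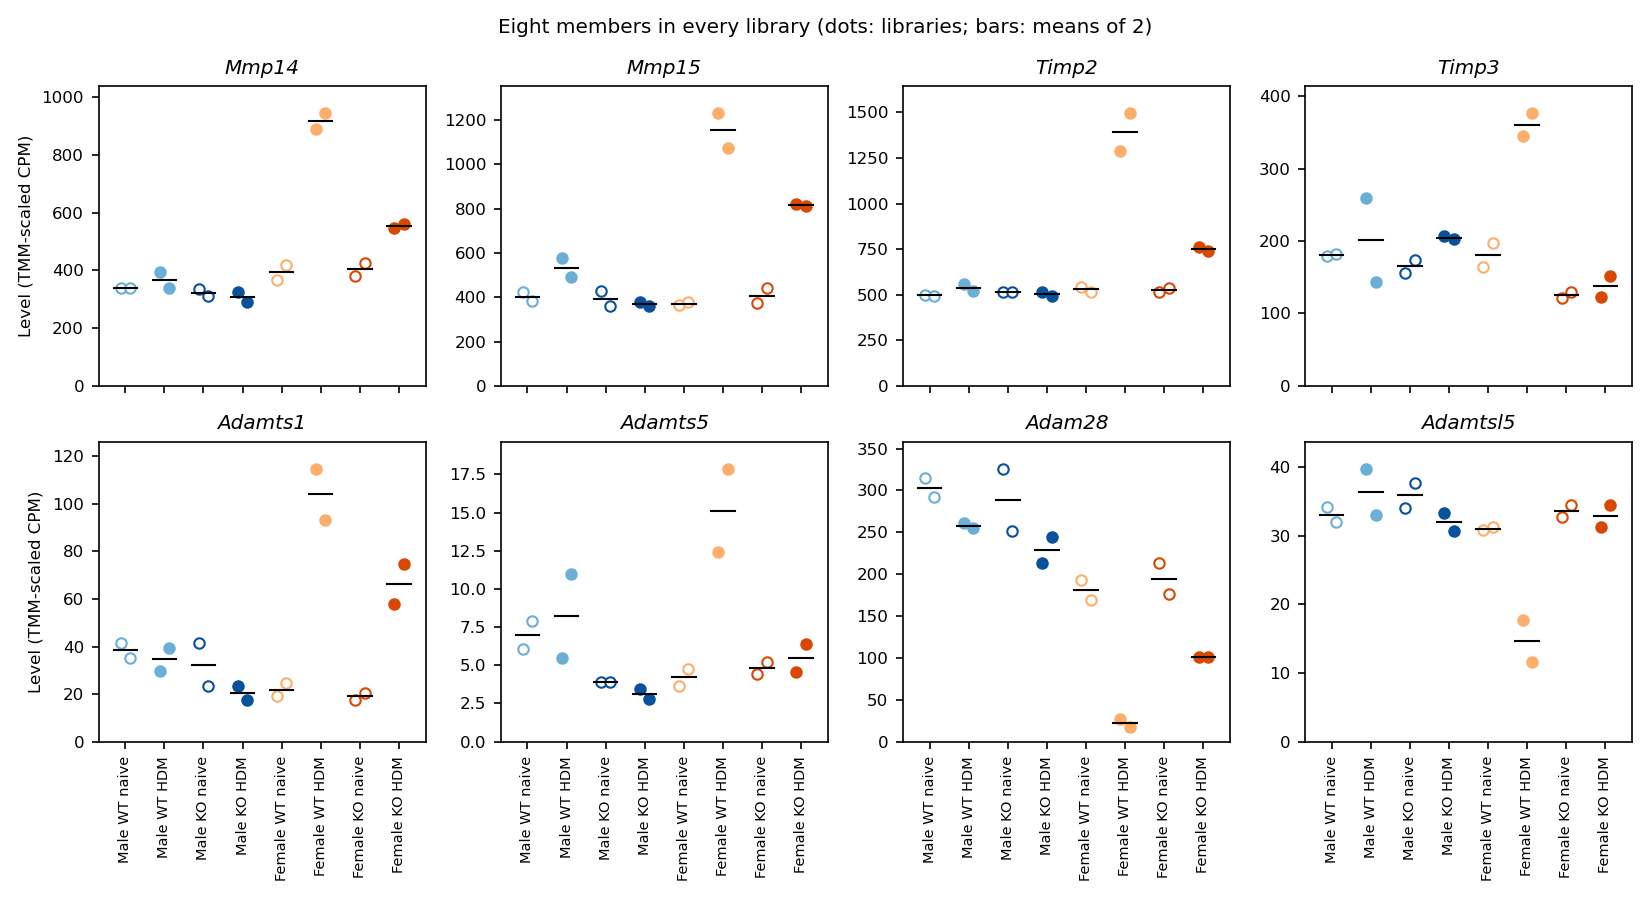
Levels (TMM-scaled CPM, vertical axes from 0) of 8 members in each library, by sex, genotype and treatment, with dots for libraries and bars for the mean of 2. Mmp14, Mmp15, Timp2, Timp3, Adamts1 and Adamts5 are highest and Adam28 and Adamtsl5 lowest in female WT cultures with HDM.

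The stromelysins and matrilysin, secreted MMPs with broad substrates, were at low levels. Mmp3 had 2 and 14 counts in naive female WT cultures and 24 and 192 counts with HDM, a ratio of 21.5 (exact 95% interval 13.0 to 38.4, counting error only). The libraries numbered 2, with the high fibroblast markers, held the higher count in both groups, and a female KO naive library had 2.85 CPM, above 1.00 CPM in female WT HDM replicate 1. The log2 fold change of Mmp3 was 4.55 ± 1.43 (edgeR adjusted p = 0.024), and without female WT HDM replicate 2 or without either naive replicate the call was lost. Mmp7, an epithelial MMP that activates defensins, had 15 and 14 counts without and 55 and 75 counts with HDM (2.79 ± 0.73, adjusted p = 0.0093). At 2.29 and 3.55 CPM its HDM libraries were above all 14 others, which had at most 0.83 CPM. The call of Mmp7 was lost without female WT naive replicate 2 or HDM replicate 2. Mmp11, a stromelysin that is activated inside the cell, rose by 0.91 ± 0.17, and shares 155 exon bases with Chchd10 on the other strand, which fell by 0.97 ± 0.12.

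Mmp3 and Mmp7 belong to a cluster of 9 Mmp genes on chromosome 9, which spans 427.1 kb (GRCm38, chr9:7272514-7699585). Only 5 of the 9, Mmp13, Mmp12, Mmp3, Mmp10 and Mmp7, had counts enough to be described, and of these Mmp3 and Mmp7 were called. The letters TGANTCA, with N any base, are a loose form of the site of the AP-1 factors. Searched on both strands, they occurred in 7 of the 9 promoters, at -35 to -95 bases from the start. Of all 32851 promoters of this length (250 bases before to 50 after the start, RefSeq, GRCm38.p6) 7.81% held them. TATAAA occurred in 8 of the 9 and in 13.6% of all promoters. A promoter was listed for 52 of the 83 members and 32 of the 53 described. The promoters of the 2 called genes with the AP-1 letters are given here for these sites, with TGANTCA and TATAAA in capitals.

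Mmp3, chr9:7445572-7445871, + strand: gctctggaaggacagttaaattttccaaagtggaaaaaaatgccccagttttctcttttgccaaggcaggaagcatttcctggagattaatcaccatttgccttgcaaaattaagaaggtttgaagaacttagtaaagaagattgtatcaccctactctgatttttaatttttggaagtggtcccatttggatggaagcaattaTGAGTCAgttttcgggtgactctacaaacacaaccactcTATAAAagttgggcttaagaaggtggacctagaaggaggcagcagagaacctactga
Mmp7, chr9:7691840-7692139, + strand: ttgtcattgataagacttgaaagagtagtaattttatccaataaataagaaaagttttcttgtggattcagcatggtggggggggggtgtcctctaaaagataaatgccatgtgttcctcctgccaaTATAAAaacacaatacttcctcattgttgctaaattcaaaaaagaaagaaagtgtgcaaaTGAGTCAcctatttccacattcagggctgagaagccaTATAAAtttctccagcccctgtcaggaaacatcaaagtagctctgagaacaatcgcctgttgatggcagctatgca

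In Mmp3 the AP-1 letters started 46 bases before the start of the gene, and in Mmp7 they started 63 bases before it. Mmp10, Mmp12 and Mmp13 held the same letters and were not called, with log2 fold changes in female WT cultures of 1.37 ± 0.86 for Mmp10, 0.07 ± 0.61 for Mmp12 and 1.14 ± 0.74 for Mmp13. Adam19 was the only other described member with these letters among the promoters listed, and it was not called (0.57 ± 1.60). Thus 2 of the 6 described genes with these letters were called, among 29 of 51 tested members.

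The gelatinases, the collagenase Mmp13 and the elastase Mmp12 were not called in female WT cultures. Mmp2 had 4.18 and 13.0 CPM without and 6.74 and 57.5 CPM with HDM, with both higher values in the libraries numbered 2. Mmp9 had 0.15 and 2.79 CPM without and 0.21 and 1.09 CPM with HDM. In both genes the groups overlapped. The 2 MMPs that fell were Mmp23 and Mmp28. Mmp23, a membrane-anchored MMP without the usual pro-peptide switch, went from 7.85 and 6.41 CPM to 1.71 and 2.42 CPM, a log2 fold change of -1.79 ± 0.27 (edgeR adjusted p = 0.00031). Mmp28, which is found in bronchial epithelium, went from 11.7 and 13.2 CPM to 8.20 and 5.26 CPM (-0.89 ± 0.17, adjusted p = 0.0015). Exons of Mmp28 share 466 bases with 1700020L24Rik on the other strand, which fell by 1.06 ± 0.19, so that reads of this stretch cannot be told apart without strand.

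Of the 8 tested sheddases, 2 rose and 1 fell in female WT cultures, and the best known were not called. Adam28, a metalloprotease expressed in lymphocytes and epithelia, had 194 and 170 CPM without HDM and 26.9 and 17.3 CPM with it. In the male libraries it had a lowest value of 214, a median of 258 and a highest value of 326 CPM, so that the HDM libraries of female WT cultures were the lowest of all 16. The log2 fold change of Adam28 was -3.03 ± 0.19 (edgeR adjusted p = 7.4e-07). Adam10, the main sheddase of Notch and of cadherins, had 202 and 214 CPM without and 188 and 184 CPM with HDM (-0.16 ± 0.08, adjusted p = 0.13). Adam17, which releases TNF and ligands of the EGF receptor, had 126 CPM in both naive cultures and 125 and 115 CPM with HDM (-0.08 ± 0.06, adjusted p = 0.32). Adam9 had 455 and 419 CPM without and 474 and 462 CPM with HDM (0.10 ± 0.16, adjusted p = 0.65), and Adam8 had a log2 fold change of 0.03 ± 0.20, which was not called.

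Adam15 rose from 50.3 and 54.4 CPM to 75.6 and 77.2 CPM (0.54 ± 0.09, adjusted p = 0.00064). Adam12, which cleaves HB-EGF and is known from mesenchyme, had 5.74 and 25.8 CPM without and 36.5 and 61.5 CPM with HDM. Its log2 fold change of 1.62 ± 0.59 ranged from 0.92 to 3.09 over the alternatives, and its call (adjusted p = 0.043) was lost without female WT naive replicate 1 or HDM replicate 2 and in a fit of the 4 compared libraries alone. Adam11, a member without a working protease site, rose by 1.31 ± 0.31, and Adam1a, whose exons overlap those of Mapkapk5 and Gm42878, rose by 0.84 ± 0.31.

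Of the 6 tested ADAMTS genes of the proteoglycanase group, 4 rose and 1 fell in female WT cultures. Adamts1, which cuts versican and aggrecan, had 19.2 and 24.6 CPM without HDM and 115 and 93.4 CPM with it, a log2 fold change of 2.25 ± 0.27 (edgeR adjusted p = 6.43e-05). Adamts5, the main aggrecanase in mice, went from 3.63 and 4.79 CPM to 12.4 and 17.9 CPM (1.84 ± 0.32, adjusted p = 0.00077). Its HDM libraries were the 2 highest, and the next was a male WT library with HDM at 11.0 CPM. Adamts1 and Adamts5 are neighbours on chromosome 16 (GRCm38, chr16:85793827-85803113 and chr16:85856173-85901828, both on the minus strand).

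Adamts9 went from 1.02 and 1.10 CPM to 3.04 and 8.48 CPM (2.43 ± 0.60, adjusted p = 0.0067), a call lost without HDM replicate 2. Adamts20 had 1 and 1 counts without HDM and 21 and 9 counts with it, a ratio of 23.9 (exact 95% interval 6.07 to 207, counting error only), and was called (adjusted p = 0.0061). It reached 10 counts in 2 libraries only with female WT HDM counted in, so its call is not independent of that group. Without female WT naive replicate 2 the call of Adamts20 was lost. Adamts15 fell by 1.08 ± 0.37, from 19.7 and 13.8 CPM to 10.3 and 5.49 CPM.

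Among the 6 tested ADAMTS genes of other or less known function, 4 rose and 1 fell. Adamts12 had 0.76 and 4.05 CPM without and 7.28 and 13.3 CPM with HDM (2.06 ± 0.60, adjusted p = 0.016). Adamts6 had 8 and 35 counts without and 33 and 70 counts with HDM (2.05 ± 0.62, adjusted p = 0.0196). Both calls were lost without female WT naive replicate 1 or HDM replicate 2 and in a fit of the compared libraries alone. Over the alternatives the log2 fold change ranged from 1.34 to 3.74 for Adamts12 and from 1.29 to 2.98 for Adamts6. Adamts10, which acts on fibrillin microfibrils, rose by 1.45 ± 0.35 and Adamts7 by 1.09 ± 0.30. Exons of Adamts7 share 122 bases with Tbc1d2b on the opposite strand, which fell (-0.95 ± 0.12). Adamts16 had 10 and 41 counts without and 2 and 5 counts with HDM (-2.05 ± 0.66, adjusted p = 0.027), and its call was lost with DESeq2 and without naive replicate 2 or HDM replicate 1. The procollagen proteases Adamts2 and Adamts14 were not called (adjusted p = 0.057 and 0.096).

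ADAMTS-like proteins resemble ADAMTS enzymes but have no protease domain. Adamtsl5, which binds fibrillin and heparin, had 30.8 and 31.2 CPM without and 17.7 and 11.6 CPM with HDM (-1.08 ± 0.16, edgeR adjusted p = 0.00029). All 14 other libraries had at least 30.7 CPM. Adamtsl1 rose by 1.23 ± 0.26 and Adamtsl4 by 0.41 ± 0.15, the latter with an adjusted p of 0.048 that was lost under 5 alternatives.

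The second comparison was the HDM response of female KO cultures. The 2 naive libraries held 10.6% of the WT mean of Lman1, whereas the 2 with HDM held 55.3 and 64.8%. HDM and this difference in Lman1 cannot be told apart in these cultures. Here 6 of the 51 tested members were called, 4 higher and 2 lower, and 10.4% of all tested genes were called, 4.63% higher and 5.77% lower. The share of called members was 11.8%, near that of all genes, and the median log2 fold change over all 51 tested members was 0.15. The 6 genes were Mmp14, Mmp15, Timp2 and Adamts1, which rose, and Mmp23 and Adam28, which fell, all in the direction seen in female WT cultures. Mmp15 went from 372 and 441 CPM to 820 and 810 CPM (1.00 ± 0.12, edgeR adjusted p = 0.0007). Timp2 went from 514 and 537 CPM to 761 and 741 CPM (0.51 ± 0.08, adjusted p = 0.0035). For Mmp14, with 382 and 424 CPM without and 547 and 560 CPM with HDM, the log2 fold change was 0.46 ± 0.10 (adjusted p = 0.015).

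Adamts1 went from 17.6 and 20.6 CPM to 57.8 and 74.8 CPM in female KO cultures (1.80 ± 0.27, adjusted p = 0.0024). Mmp23 went from 6.95 and 6.69 CPM to 1.74 and 1.25 CPM (-2.19 ± 0.27, adjusted p = 0.0009), and Adam28 from 213 and 176 CPM to 101 CPM in both cultures (-0.95 ± 0.17, adjusted p = 0.0063). Without female KO naive replicate 1 or HDM replicate 2 the calls of Mmp14 and Adam28 were lost, and that of Mmp14 also without HDM replicate 1. Timp3 was at 122 and 129 CPM without and 123 and 152 CPM with HDM (0.13 ± 0.21), and Timp1 had a log2 fold change of 0.31 ± 0.75. Mmp24, Mmp3 and Mmp7, with the large folds in female WT cultures, had adjusted p of 0.68, 0.40 and 0.94 here.

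The difference between the HDM responses of female KO and female WT cultures was tested directly. It was called for 8 of 51 tested members, against 11.2% of all tested genes (6.16% higher and 5.08% lower in KO). Lman1 differed between the naive and HDM-treated female KO libraries, and this cannot be told apart from HDM here. The response was lower in KO cultures for Timp2 (-0.88 ± 0.12, edgeR adjusted p = 0.0015), Mmp14 (-0.77 ± 0.14), Mmp15 (-0.63 ± 0.17), Adamts5 and Adam5, and higher for Adam28 (2.08 ± 0.25, adjusted p = 0.00083), Adamtsl5 (1.05 ± 0.22) and Mmp28 (1.27 ± 0.24). Mmp28 had 13.9 and 14.9 CPM without and 19.5 and 17.9 CPM with HDM in female KO cultures, where the gene was not called (0.38 ± 0.16), and the female WT change was of the other sign. Adamtsl5 stayed between 31.2 and 34.5 CPM in all 4 female KO libraries. For Adamts5 the female KO values were 4.45 and 5.23 CPM without and 4.56 and 6.41 CPM with HDM (0.18 ± 0.32). Adam5, a testis gene at 0.32 to 1.29 CPM over all libraries, was called by this test only among the HDM responses and their differences. For Adamts1 and Mmp23, which were called in both genotypes, the difference was not called (-0.45 ± 0.37 and -0.40 ± 0.38). Nor was it called for Mmp3 (-6.52 ± 1.97, adjusted p = 0.0544), Mmp24 (-3.57 ± 1.10, adjusted p = 0.0584) or Timp3 (-0.87 ± 0.29, adjusted p = 0.0784).

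**Figure D4:**
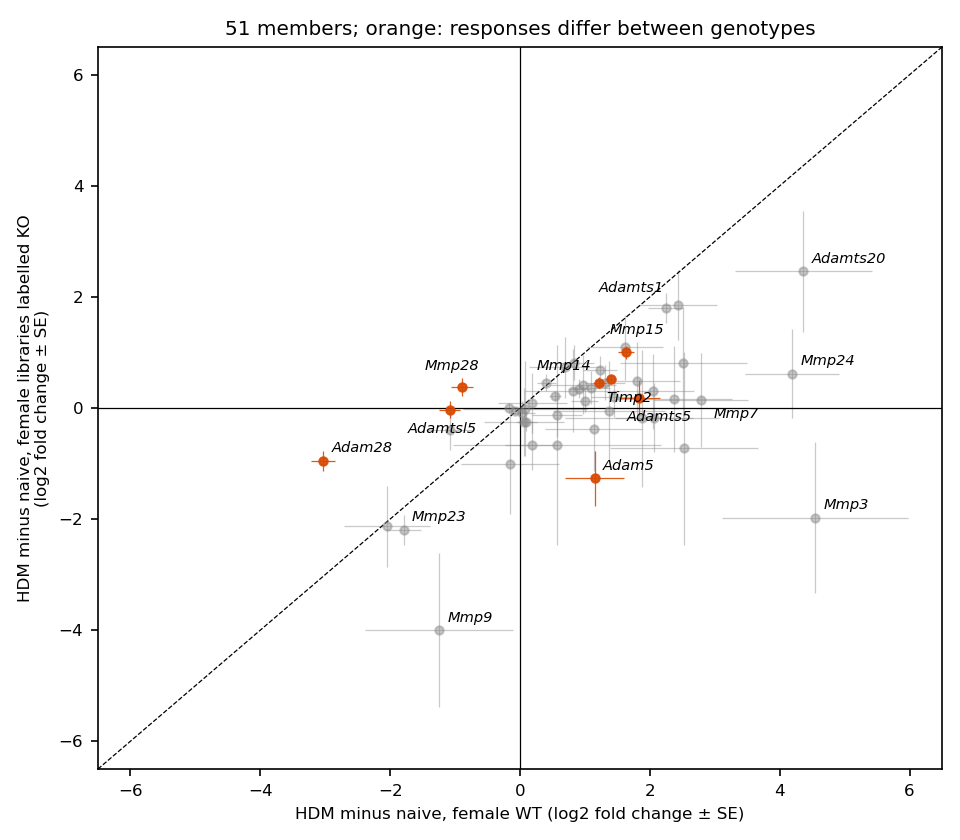
HDM minus naive in female WT cultures (horizontal, log2 fold change ± SE) against female libraries labelled KO (vertical) for 51 members, with the line of equal responses dashed. The 8 orange members, whose responses differed between the genotypes as labelled, lie off the line, from Adam28 at -3.03 and -0.95 to Adamts5 at 1.84 and 0.18, and both axes use the same scale. The naive KO libraries held 10.6% of the WT mean of Lman1 and those with HDM 55.3 and 64.8%.

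In male cultures, HDM gave no called member in either genotype (edgeR), and 0% of all tested genes were called. At an unadjusted p under 0.05 there were 2 members in male WT and 6 in male KO cultures, and DESeq2 called 0 in both. The share of all genes at that unadjusted p is not given, so the 2 and the 6 are descriptions only. The smallest adjusted p, shared by several members, was 0.94 for male WT and 0.78 for male KO. The median log2 fold change over tested members was -0.13 in male WT and -0.18 in male KO cultures. Lman1 stood at 11.8 and 52.6% of the WT mean in naive male KO libraries and at 53.9 and 54.8% with HDM. Mmp15 had 422 and 383 CPM without and 576 and 491 CPM with HDM in male WT cultures (0.41 ± 0.12, adjusted p = 0.94), and 428 and 361 CPM against 378 and 361 CPM in male KO cultures. Log2 fold changes in male WT and male KO cultures were 0.11 ± 0.08 and -0.03 ± 0.08 for Timp2, -0.23 ± 0.17 and -0.33 ± 0.17 for Adam28, and -0.15 ± 0.26 and -0.66 ± 0.27 for Adamts1.

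The difference between the responses of male and female WT cultures was called for 13 of 51 tested members, against 24.2% of all tested genes. The male response was lower for 9, against 11.3% of all genes, namely Timp2 (-1.28 ± 0.12, edgeR adjusted p = 3.63e-05), Mmp14 (-1.10 ± 0.14), Mmp15 (-1.23 ± 0.17), Adam15 and the ADAMTS genes Adamts1, Adamts5, Adamts9, Adamts12 and Adamts20. It was higher for 4, against 12.8% of all genes, namely Adam28 (2.80 ± 0.25), Adamtsl5 (1.22 ± 0.22), Mmp23 (1.47 ± 0.37) and Mmp28 (1.05 ± 0.24). Of these 13, the genotype test in females also called Timp2, Mmp14, Mmp15, Adamts5, Adam28, Adamtsl5 and Mmp28. Both tests use the female WT libraries. Adamts20 reached 10 counts in 2 libraries only with female WT HDM counted in, so its call is not independent of that group. Between male and female KO cultures the difference was called for 4 members, against 3.56% of all tested genes (1.77% higher and 1.79% lower in males): Adamts1 (-2.45 ± 0.38), Mmp15 (-1.10 ± 0.17), Timp2 (-0.54 ± 0.12) and Mmp23 (2.61 ± 0.37). In males, the responses of KO and WT cultures differed for 0 tested members with edgeR and with DESeq2, with 4 at an unadjusted p under 0.05. For these 4 the share of all genes at that p is not given.

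Without HDM, sex and genotype gave no called member with edgeR. Between naive males and females 0.1% of all tested genes were called in WT and 0.188% in KO cultures. At an unadjusted p under 0.05 there were 8 members for WT and 11 for KO, and DESeq2 called 1 in each, Adam28 (higher in male WT) and Mmp9 (lower in male KO). The shares of all genes above are adjusted edgeR calls. None is given at the unadjusted p or with DESeq2, so these member counts are descriptions only. Adam28 had 314 and 292 CPM in naive male WT and 194 and 170 CPM in naive female WT cultures, without overlap (0.74 ± 0.17, edgeR adjusted p = 0.18). Between naive KO and WT cultures the counts were 1 member at an unadjusted p under 0.05 in females and 3 in males, and DESeq2 called 0 in both. The naive male KO libraries held 11.8 and 52.6% of the WT mean of Lman1. Comparisons with this group, by sex and by genotype, thus rest on mixed Lman1 levels.

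With HDM, 34 of 51 tested members differed between male and female WT cultures, against 41.6% of all tested genes, and 29 of the 34 were lower and 5 higher in males (20.3% and 21.3% of all genes). For KO cultures 14 members differed, against 25.3% of all genes, 11 of them lower and 3 higher in males (12.4% and 12.9% of all genes). Between female KO and WT cultures with HDM 19 members differed, against 29.2% of all genes, and 16 were lower and 3 higher in KO (14.3% and 14.9% of all genes). The comparisons of WT cultures by sex and of females by genotype share the female WT libraries with HDM. Adamts14 and Adamts20 are among the 29, and Adamts14 is among the 16. Both genes reached 10 counts in 2 libraries only with female WT HDM counted in, so these calls are not independent of that group. The 16 lower in KO also included Timp3 (-1.39 ± 0.21), Timp2 (-0.89 ± 0.08), Mmp24 (-3.33 ± 0.69) and Mmp7 (-2.99 ± 0.76). The 3 that were higher in KO were Adam28 (2.18 ± 0.19), Mmp28 (1.47 ± 0.17) and Adamtsl5 (1.16 ± 0.16). The male-to-female comparison in WT was the only one of the 16 that called Adam17, which was 0.19 ± 0.06 higher in males. Between male KO and WT cultures with HDM edgeR called 0 members, with 13 at an unadjusted p under 0.05, and DESeq2 called 4 (Mmp15, Adamts5, Adamts7 and Mmp28), all lower in KO. Of all tested genes edgeR called 0% here. The shares of all genes at that unadjusted p and with DESeq2 are not given, so the 13 and the 4 are descriptions only.

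The order of the 2 replicates of each group in fibroblast markers was set beside their order in each member. In 7 of the 8 groups, the replicate with more of the 9 fibroblast markers also had more Mmp2 and more Timp1, and in all 8 groups it had more Adam19 and Adamts2. For Mmp14 and Timp2 this was so in 4 of the 8 groups, for Mmp15 in 3 and for Adam8 in 0. Of the 51 tested members, 2 had this order in all 8 groups, 7 in 7, 11 in 6, 10 in 5, 7 in 4 and the others in fewer, and besides Mmp2 and Timp1 those with 7 were Adam11, Adam22, Adamts4, Adamts9 and Adamts14. No share over all tested genes is given beside these counts. Replicates differed little in Adam11 and Adam22, with median log2 ratios (1 CPM added) of 0.07 and 0.17, against 1.66 in Mmp2 and 0.99 in Timp1. In the naive and HDM-treated female KO groups the marker sums of the replicates differed only 1.18-fold and 1.08-fold, so their order there carries little weight. Mmp2 was 13.0 against 4.18 CPM in the naive and 57.5 against 6.74 CPM in the HDM-treated female WT cultures, each time higher in replicate 2. In the same pairs Timp2 was 517 against 541 CPM and 1495 against 1288 CPM. With the fibroblast marker level as a covariate, all 29 members called in female WT cultures were still called, and 6 more were, among them Mmp2 and Timp1. The marker sums were 29.3 and 577 CPM in naive and 48.9 and 606 CPM in HDM-treated female WT cultures. Such a covariate could thus shift the HDM response little, and the part of fibroblasts in that response was not tested. The share of all genes called in that fit is not given. With both female WT libraries numbered 2 left out, which leaves 1 culture against 1 with a spread taken from the other groups, 18 members were called, of which 17 were among the 29. Among the 12 that were no longer called, the log2 fold change was 4.44 for Adamts20 (4.36 with all libraries), 2.22 for Adamts6 (2.05), 3.71 for Mmp3 (4.55), 2.06 for Mmp7 (2.79), 1.57 for Adamts9 (2.43), 1.09 for Mmp16 (1.81), -0.52 for Mmp28 (-0.89) and -2.07 for Adamts16 (-2.05). The other 4 were Mmp11, Adam11, Adam1a and Adamts15.

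**Figure D5:**
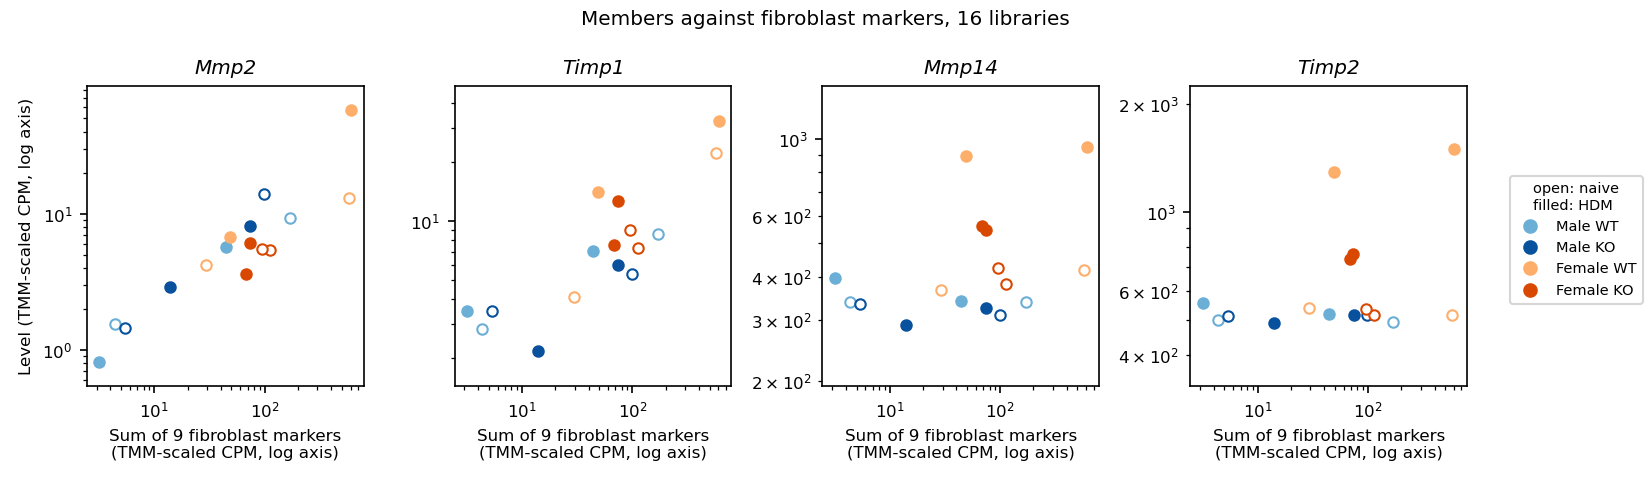
Levels of 4 members (vertical, log axis) against the summed level of 9 fibroblast markers (horizontal, log axis), both in TMM-scaled CPM, 1 point per library, open for naive and filled for HDM. The library with the highest markers, female WT HDM replicate 2, also has the highest Mmp2 and Timp1, at 57.5 and 32.7 CPM. Mmp14 and Timp2 are high in both female WT libraries with HDM, whose markers sum to 48.9 and 606 CPM.

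Markers of epithelial and other cells were called in the same female cultures. In female WT cultures, where 20.6% of all tested genes were called higher and 22.4% lower, all 8 club cell, 5 of 5 tested goblet cell, 5 of 8 basal cell, 7 of 12 ciliated cell and 4 of 9 macrophage markers fell. Of 7 general epithelial markers 5 rose and 2 fell, and of 7 tested squamous markers 1 rose and 3 fell. In female KO cultures, with 4.63% of all genes called higher and 5.77% lower, 6 club cell, 3 goblet cell, 1 basal cell, 2 ciliated cell and 2 macrophage markers fell and 2 general epithelial markers rose. Of 8 tested fibroblast markers 2 rose in female WT and 0 in female KO cultures (edgeR), and in males 0 markers of any list were called. The sum of 8 club cell markers was 25126 and 19268 CPM in naive and 4951 and 4032 CPM in HDM-treated female WT cultures, and 22962 and 18956 CPM against 10446 and 9354 CPM in female KO cultures. The sum of 6 goblet cell markers was 86.6 and 88.3 CPM without and 3.08 and 2.75 CPM with HDM in female WT cultures, and that of 8 basal cell markers was 9775 and 10646 CPM against 4298 and 2257 CPM. In female KO cultures the basal cell sum was 10006 and 11259 CPM without and 13054 and 10476 CPM with HDM, and these overlapped. The sum of the general epithelial markers was 7733 and 8131 CPM without and 10640 and 10536 CPM with HDM in female WT cultures, and 7842 and 8773 CPM against 10019 and 8956 CPM in female KO cultures. Of 5 tested smooth muscle markers 0 were called in female WT cultures, where Acta2, the main contributor to their sum, was at 52.3 and 127 CPM without and 272 and 441 CPM with HDM. In bulk RNA fewer cells of a type and less RNA per cell cannot be told apart, and the part of these shifts in the members' changes was not tested.

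The partners and substrates of these proteases were followed in 5 lists, whose counts are read against the 43.1% of all tested genes called in female WT cultures (20.6% higher and 22.4% lower) and the 10.4% called in female KO cultures. Earlier results of these data were known when the lists were chosen, so their counts are descriptions only. Of the activators and cell-surface partners of MMPs, 12 of 20 tested were called in female WT cultures, 10 higher and 2 lower, with a median log2 fold change of 0.53 against -0.02 over all tested genes. Plau, the urokinase that starts the plasmin cascade, had 15.7 and 33.0 CPM without and 126 and 212 CPM with HDM (2.78 ± 0.37, adjusted p = 0.00012). Lcn2, which binds MMP9, rose by 1.54 ± 0.34. Tmprss4, a membrane serine protease, went from 66.8 and 65.8 CPM to 4.62 and 3.50 CPM (-4.02 ± 0.25, adjusted p = 6.05e-07). Furin, which activates membrane-type MMPs and ADAMs, was not called (-0.11 ± 0.10). In female KO cultures 6 of the 20 were called, 3 higher and 3 lower, against 10.4% of all genes.

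Of the other protease inhibitors, 8 of 17 tested were called in female WT cultures, 6 higher and 2 lower, with a median of 0.14, and 2 of 17 in female KO cultures. Both counts were near the shares of all genes, 43.1% and 10.4%. Thbs1, which can inhibit MMP activity, rose by 2.39 ± 0.36, from 123 and 293 CPM to 1063 and 1124 CPM. Spock2 was called at 2.14 ± 0.58 with 7.87 CPM in HDM replicate 1 and 1.42 CPM in replicate 2, and Pzp, a broad protease trap, at -1.80 ± 0.66. Reck, the membrane-anchored inhibitor of MMP14, was not called (1.03 ± 0.46, adjusted p = 0.094).

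Of 13 tested partners of ADAM10 and ADAM17, 10 were called in female WT cultures, 8 higher and 2 lower, with a median of 0.35, against 43.1% of all genes, while Adam10 and Adam17 were not called. The tetraspanins that carry ADAM10 moved in both directions. Tspan15 went from 66.6 and 57.7 CPM to 9.99 and 10.1 CPM (-2.62 ± 0.12, edgeR adjusted p = 1.35e-07), Tspan33 from 32.5 and 25.5 CPM to 2.75 and 3.93 CPM (-3.12 ± 0.23), and Tspan17 from 14.8 and 16.3 CPM to 41.6 and 46.6 CPM (edgeR adjusted p = 1.04e-06). In female KO cultures 5 of the 13 were called, against 10.4% of all genes. Tspan33 fell by 1.89 ± 0.21 and Tspan17 rose by 0.43 ± 0.10 there, and Tspan15 was not called (-0.31 ± 0.11, adjusted p = 0.10). Rhbdf2, the iRhom that brings ADAM17 to the surface, rose by 0.60 ± 0.10 in female WT cultures.

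Of 27 tested substrates shed by ADAMs, 17 were called in female WT cultures, 12 higher and 5 lower, with a median of 0.54, and 6 of 27 in female KO cultures, against 43.1% and 10.4% of all genes. Among those that rose, Hbegf, a ligand of the EGF receptor, did so by 1.67 ± 0.41, Cdh2 by 4.06 ± 0.37, Cdh3 by 1.60 ± 0.20 and Ager by 1.82 ± 0.64. The 5 lower substrates are not named here. Of 24 tested matrix substrates 13 were called, 12 higher and 1 lower, with a median log2 fold change of 1.32, against 43.1% of all genes. Hspg2 (perlecan) had 52.6 and 86.0 CPM without and 750 and 734 CPM with HDM (3.42 ± 0.23), and Fn1 had 536 and 1045 CPM without and 3634 and 6234 CPM with it (2.64 ± 0.36). The basement membrane genes Nid1 (4.08 ± 0.87), Col18a1 (2.58 ± 0.30), Col4a2 (2.34 ± 0.57), Col4a1 (2.24 ± 0.68) and Lama3 (1.81 ± 0.19) and the matrix gene Tnc (1.92 ± 0.44) also rose. The fibrillar collagens Col1a1 (-2.38 ± 1.85), Col1a2 (0.13 ± 1.72) and Col3a1 (1.27 ± 1.73), which are also fibroblast markers, were not called. In male cultures of either genotype 0 genes of any of the 5 lists were called with edgeR, with 0 to 3 genes per list at an unadjusted p under 0.05 in WT and 1 to 4 in KO. In female KO cultures 4 of the 24 matrix substrates were called, all 4 higher, against 4.63% of all genes called higher.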

How the data were processed

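RNA was extracted with a column kit, enriched for mRNA and sequenced from 16 MTEC cultures, 2 in each of 8 groups. Per library and Ensembl gene, the authors deposited read counts that were not normalized. The submitters' processing notes name Trimmomatic 0.36, STAR 2.5.2b, featureCounts, Subread 1.5.2, DESeq2 and GRCm38, and the strand setting and annotation release are not given in the sources used here. If strand was ignored, reads of overlapping genes can be shared or dropped.

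Identifiers were matched to GENCODE M21 (49056 of 49315, the others holding 0.0106% of counts), and levels are CPM computed with TMM factors. edgeR 4.0.16 (R 4.3.3) fitted quasi-likelihood models with 1 mean per group (8 in all) to 15993 genes kept by filterByExpr, with Benjamini-Hochberg adjustment over all of them and two-sided tests. Calls were made at an adjusted p under 0.05. SE is the size of the log2 fold change divided by the square root of F. Intervals of count ratios are exact binomial. The model was tested on simulated data with planted changes, in which all genes had the same spread between replicates. It thus does not show how calls fare for members whose replicates differ widely. Python 3.11.15 with pandas 2.3.3, scipy 1.17.1 and matplotlib 3.10.9 was used for the rest.

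Members named in full were the Timp genes, those called in female WT cultures and 1.5 or more from 0 in log2 fold change, those called in both differences of responses (between sexes in WT and between genotypes in females), any called in a naive or male comparison (0 were), and the 3 highest per length. Alternatives were other scaling, tool, filters and samples, a replicate block and leaving out libraries. Others are named with fewer values. The members and lists were chosen with earlier results of these data known. Protein sequences were not used here.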

Additional observations from a re-analysis of the deposited data

Results flagged for a closer look

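The HDM response differed between groups by a direct test of the difference (edgeR, adjusted p under 0.05) for 25 combinations of member and contrast. Values are differences of log2 fold changes.

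Between sexes in WT cultures (male minus female), the response of Timp2 differed by -1.28, Mmp14 by -1.10, Mmp15 by -1.23, Adam15 by -0.57, Adamts1 by -2.40, Adamts5 by -1.60, Adamts9 by -2.57, Adamts12 by -2.85 and Adamts20 by -5.31. Adam28 differed by 2.80, Adamtsl5 by 1.22, Mmp23 by 1.47 and Mmp28 by 1.05. The value of Adamts20 rests on naive female WT libraries with 1 count each, and those of Adamts9 and Adamts12 have SEs of 0.84 and 0.91.

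Between sexes in KO cultures (male minus female), Adamts1 differed by -2.45, Mmp15 by -1.10, Timp2 by -0.54 and Mmp23 by 2.61. All HDM-treated libraries labelled KO held 53.9% or more of the WT mean of Lman1, whereas both naive female KO libraries held 10.6%.

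Between genotypes in females (KO minus WT), Timp2 differed by -0.88, Mmp14 by -0.77, Mmp15 by -0.63, Adamts5 by -1.65 and Adam5 by -2.42, whereas Adam28 differed by 2.08, Adamtsl5 by 1.05 and Mmp28 by 1.27. The naive and HDM-treated female KO libraries also differed in Lman1, which cannot be told apart from HDM here. Adam5 lies at or under 1.29 CPM in every library, and its call was lost in each of the 8 fits that left out 1 of the female libraries.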

How the results depend on the processing

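With 2 cultures per group, members with few counts have wide errors. Upper-quartile scaling kept all 16 counts of called members within 1.5 times, and no named member reversed under any alternative while called. Scaling moved the median of all genes by at most 0.024 (log2). The cause of the changes below was not tested. Counts below are of members only, and the shares of all genes called under the same settings are not given. Nor is the number of members tested without the filter. The counts thus show how far calls depend on the setting, not whether members differ in this from other genes.

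Without a filter on low counts, more members were called: 11 for the HDM response in female KO, 2 in male WT and 3 in male KO, 11 for the sex difference in naive WT, 14 in naive KO and 25 in HDM-treated KO, 3 for genotype in naive females, 1 in naive males, 31 in HDM-treated females and 11 in HDM-treated males, and 26, 15, 20 and 3 for the differences of responses between sexes in WT, sexes in KO, genotypes in females and genotypes in males. With DESeq2 there was 1 for each naive sex difference, 4 for genotype in HDM-treated males and 7 for the difference of responses between sexes in KO. With only the compared libraries there were 11 for the female KO response, 22 for each sex difference with HDM and 7 for the difference of responses between sexes in KO. At least 10 counts in every library, which left 30 members, gave 22 for the sex difference in HDM-treated WT. Leaving out 1 library at a time gave 19 to 29 for the female WT response, 19 to 35 for the sex difference in HDM-treated WT, 8 to 18 for genotype in HDM-treated females, 1 to 5 and 4 to 8 for the differences of responses between sexes in KO and genotypes in females, and the lone sample left in a group was assumed to vary like the other groups. Libraries whose omission moved such a count by over 1.5 times were female WT HDM replicate 2 (19 for the female WT response, 19 for the sex difference with HDM, 9 for genotype with HDM and 5 for the difference between genotypes), male WT HDM replicate 1 (22 for the sex difference), female KO HDM replicates 1 and 2 (10 and 8 for genotype with HDM, 5 and 4 for the difference between genotypes), female WT naive replicate 1 and female KO naive replicates 1 and 2 (4, 5 and 4 for the latter), and male KO HDM replicate 2 and female KO naive replicate 1 (1 each for the difference between sexes in KO).

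Chosen after seeing the data, the fibroblast covariate gave 10 for the female KO response, and leaving out both female WT libraries numbered 2 gave 18 for the female WT response, 18 for the sex difference in HDM-treated WT, 10 for genotype in HDM-treated females and 5 for the difference between genotypes in females.

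Replicate numbers are shared by the groups, but no label says that they mark a shared source, and with 2 pairs the correlation of replicate deviations (-0.164 to 0.483) does not show pairing. With a replicate block the female WT response had 30 called members, the female KO response 8, the male responses 0 and the 2 differences of responses with female WT cultures 14 and 9, and no count moved by over 1.5 times. A crossed block, for the 2 contrasts with a correlation under -0.1, gave 0 called members in both.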
